A study of Mus musculus with 8 samples.

Results

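The mitochondrially encoded transcripts were taken as every entry of the d5 TPM table whose gene symbol starts with mt-. There were 13 such entries among 12417, and all 13 are messenger RNAs, with 0 ribosomal and 0 transfer RNAs among them. TPM is a transcript level corrected for gene length and scaled to the same total in every library. The data are 8 RNA-Seq libraries of donor CD4+ T cells sorted from the spleens of lethally irradiated allogeneic BALB/c (H2-Kd) recipients on d5 after transplantation. Each of 4 recipients had received T cells of both genotypes together with B6 T cell-depleted bone marrow, so that 4 ST2WT and 4 ST2fl/fl libraries form 4 pairs. The ST2WT donors were St2+/+ B6 mice carrying CD45.1. The ST2fl/fl donors carried CD45.2 and the combination CD4-CrexR26-LSL-YFPxSt2fl/fl on the same B6 background. In the latter, the CD4 promoter drives Cre in T cells, which excises part of Il1rl1, the gene of the IL-33 receptor ST2, and turns on a YFP reporter. The 2 genotypes therefore also differ in the CD45 allele and in the Cre and reporter transgenes, and mice were 6 to 10 weeks old when experiments began. The comparison asks how the level and makeup of mitochondrial messengers differ between donor T cells that can and cannot receive the IL-33 signal in the same host.

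The mitochondrial genome is a small circle of DNA that is transcribed from both strands into long precursors. Transfer RNAs are cut out of these precursors, which frees the ribosomal RNAs and most messengers, and most messengers are then polyadenylated. Every messenger encodes a core membrane subunit of the respiratory chain or of ATP synthase. The mt-Nd genes encode subunits of complex I (NADH dehydrogenase), mt-Cytb encodes cytochrome b of complex III, the mt-Co genes encode the catalytic core of complex IV (cytochrome c oxidase), and mt-Atp6 and mt-Atp8 encode subunits of the proton channel of ATP synthase. The other subunits of these complexes are encoded in the nucleus. T cells enlarge their mitochondria and raise respiration when they are activated and divide.

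In GENCODE M21 on GRCm38, chromosome MT carries 37 genes, of which 13 are protein coding, 2 are ribosomal RNAs and 22 are transfer RNAs. The 13 entries are the complete protein-coding set. The ribosomal and transfer RNAs were not analysed here. Of the members, 12 lie on the plus strand and mt-Nd6 lies on the minus strand. In map order, mt-Nd1 spans chrMT:2751-3707, mt-Nd2 chrMT:3914-4951, mt-Co1 chrMT:5328-6872, mt-Co2 chrMT:7013-7696, mt-Atp8 chrMT:7766-7969, mt-Atp6 chrMT:7927-8607, mt-Co3 chrMT:8607-9390, mt-Nd3 chrMT:9459-9806, mt-Nd4l chrMT:9877-10173, mt-Nd4 chrMT:10167-11544, mt-Nd5 chrMT:11742-13565, mt-Nd6 chrMT:13552-14070 and mt-Cytb chrMT:14145-15288. Each is a single exon with no intron.

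Neighbouring messengers share bases at 4 places, where a read can belong to either gene. The shared bases are shown because they bear on how the levels of these pairs can be read. They are in capitals below, with 12 flanking bases on each side, read on the plus strand 5′ to 3′ from the GENCODE M21 transcripts.
mt-Atp8 and mt-Atp6, chrMT:7915-7981: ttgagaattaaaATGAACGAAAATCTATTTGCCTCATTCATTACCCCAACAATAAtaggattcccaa
mt-Atp6 and mt-Co3, chrMT:8595-8619: tgataatacataAtgacccaccaaa
mt-Nd4l and mt-Nd4, chrMT:10155-10185: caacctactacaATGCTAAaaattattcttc
mt-Nd5 and mt-Nd6, chrMT:13540-13577: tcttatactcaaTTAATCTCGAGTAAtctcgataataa
The overlaps are 43, 1, 7 and 14 bases long. The capitals of the first and of the Nd4 pair open with the ATG of the downstream gene and close with the TAA of the upstream gene, so that mt-Atp8 ends inside mt-Atp6 and mt-Nd4l ends inside mt-Nd4. The former takes up 21.1% of mt-Atp8. The last joins genes of opposite strands and closes with the TAA of mt-Nd5, while its first 3 bases, TTA, are the reverse complement of the TAA that ends mt-Nd6. Whether strand was used in counting is not given in the sources used here, and without it reads from mt-Nd6 and from transcripts of the other strand over the same bases cannot be told apart.

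The annotated ends show how closely these messengers are packed. Of the 13 members, 10 end in a whole stop codon and 3 (mt-Co3, mt-Nd4 and mt-Cytb) end in a lone T, which becomes a TAA stop only once the poly(A) tail is added. Their last 24 bases, with that T in capitals, are given for comparison with the closed end of mt-Co1.
mt-Co3, chrMT:9367-9390: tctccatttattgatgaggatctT
mt-Nd4, chrMT:11521-11544: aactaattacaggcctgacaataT
mt-Cytb, chrMT:15265-15288: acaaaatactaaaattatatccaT
mt-Co1, chrMT:6849-6872: ccaacctatgtaaaagtaaaaTAA
The first codon is ATG in 9 members and differs in 4, which are shown with that codon in capitals because each differs from the usual start.
mt-Nd1, chrMT:2751-2774: GTGttctttattaatatcctaaca
mt-Nd2, chrMT:3914-3937: ATAaatcctatcacccttgccatc
mt-Nd3, chrMT:9459-9482: ATTaacctgtacactgttatcttc
mt-Nd5, chrMT:11742-11765: ATCaatattttcacaacctcaatc

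Copies of mitochondrial genes in nuclear DNA can take up reads or give them. Of the members, 9 share at least 1 run of 50 bases with an annotated nuclear gene and 4 (mt-Nd1, mt-Atp8, mt-Nd6 and mt-Cytb) share none. The closest copies are 7 neighbouring pseudogenes at chr1:24611535-24616197, whose aligned bases are 98.8% to 100% identical to mt-Nd4, mt-Nd4l, mt-Nd3, mt-Co3, mt-Atp6, mt-Co2 and mt-Co1. None of the 14 nuclear genes that share such runs is an entry of the table. How reads that match both places were assigned is not given in the sources used here, so the levels of the 9 members that share runs may be affected, and the 4 others are the ones for which no annotated copy was found. Copies outside annotated genes were not searched.

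Among all 8 libraries the ST2WT library of recipient 2 stood apart, and it is named before the results because many of them rest on it. The SD over all tested genes of its log2 deviations from the mean of the other libraries of its genotype was 0.465. In the 7 others this SD was 0.242 to 0.279. Il1rl1 was at 18.6, 14.6, 21.3 and 18.2 TPM in ST2WT cells from recipients 1 to 4 and at 15.8, 14.9, 16.7 and 17.7 TPM in the ST2fl/fl libraries, with overlap between genotypes. A TPM of the whole gene does not separate the deleted part from the rest, so this level checks no label. All 10 CD4 T cell markers were entries of the table, with a summed level of 12806 to 13580 TPM in ST2WT and 14779 to 14910 TPM in ST2fl/fl libraries. Of markers of other cells, 4 of 8 for B cells (283 to 294 against 192 to 263 TPM), 2 of 10 for myeloid cells (28.5 to 42.2 against 38.5 to 57.4 TPM), 3 of 8 for erythroid cells (4.65 to 6.67 against 3.11 to 7.20 TPM), 6 of 8 for CD8 T and NK cells (184 to 280 against 163 to 231 TPM) and 1 of 8 for stromal cells (12.6 to 15.3 against 9.31 to 11.6 TPM) were entries, with ST2WT given first. Cd79a, Ms4a1, Lyz2, Csf1r, Cd8a and Ncr1 were not among the entries. No entry held a value of 0 in any library, so a missing marker need not be at 0 in every library. A shared replicate number was read as a shared recipient, since the labels name no recipient.

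Mitochondrial messengers made up a like share of the signal in 7 libraries and a smaller one in the remaining library. Their share of summed TPM was 12.7, 9.18, 13.8 and 12.9% in the ST2WT libraries of recipients 1, 2, 3 and 4, and 13.5, 12.7, 13.7 and 13.3% in the ST2fl/fl libraries of the same recipients. The ST2WT library of recipient 2 was the lowest of all 8, and the 2 genotypes overlapped. The mean was 12.1 ± 2.02% in ST2WT and 13.3 ± 0.419% in ST2fl/fl cells (SD, n = 4 each), a difference of -1.20 percentage points that is smaller than the SD in ST2WT cells. Without the ST2WT library of recipient 2 the ST2WT mean was 13.1 ± 0.570% (SD, n = 3) and the difference was -0.22 percentage points. In a bulk library, fewer cells with abundant mitochondrial RNA and less of this RNA per cell cannot be told apart.

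**Figure D1:**
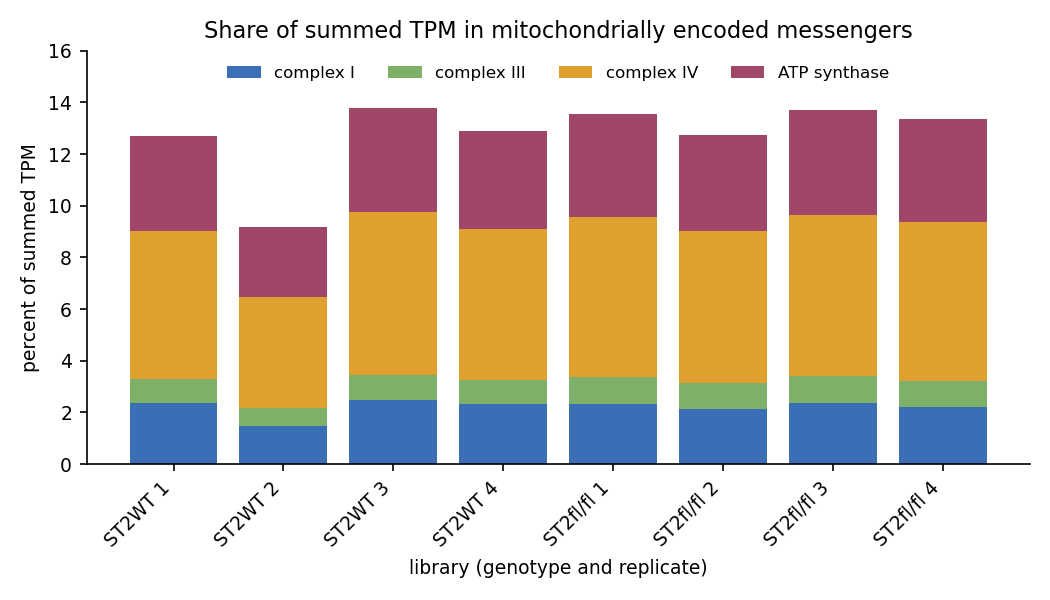
Share of summed TPM held by mitochondrially encoded messengers (vertical axis, percent) in each of the 8 libraries, with bars stacked by the complex whose subunits are encoded. The ST2WT library of replicate 2 reaches 9.18% and the 7 others lie between 12.7 and 13.8%.

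Relative to the summed TPM of all other entries, the mitochondrial messengers stood at 13.9 ± 2.57% in ST2WT and 15.4 ± 0.556% in ST2fl/fl cells (SD, n = 4 each). This scale removes the part of the total that the members hold themselves. It rises with the share by construction, so the order of the libraries is the same and is no separate check. The entries fell 473 to 666 TPM short of the full TPM total in each library, so that all genes left out of the table, mitochondrial ribosomal and transfer RNAs included, held at most that much of the total as the authors scaled it.

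By complex, complex IV subunits held the largest part of the mitochondrial total, with 45.7 ± 0.781% in ST2WT and 45.9 ± 0.312% in ST2fl/fl cells (SD, n = 4 each, here and in the rest of this paragraph). The ATP synthase subunits held 29.3 ± 0.169% and 29.6 ± 0.239%. The 7 complex I subunits together held 17.7 ± 1.12% and 16.9 ± 0.367%, and cytochrome b, the sole member in complex III, held 7.36 ± 0.263% and 7.63 ± 0.239%. The parts thus stood in the same order in both genotypes, and each overlapped between them. Complex I subunits held only 16.04% of the mitochondrial total in the ST2WT library of recipient 2, below the 18.0 to 18.6% of the other ST2WT libraries and the 16.6 to 17.3% of the ST2fl/fl libraries, so without this library neither the complex I nor the complex III part overlapped between genotypes.

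The messengers spanned a wide range of levels in a nearly fixed order. In each library the highest was 38.3 to 53.1 times the lowest, compared per length in TPM. From high to low the order was mt-Atp6, mt-Co3, mt-Co2, mt-Co1, mt-Cytb and mt-Nd1, mt-Atp8, mt-Nd4, mt-Nd2, mt-Nd6 and mt-Nd3, mt-Nd5 and mt-Nd4l. Of the 13 members, 9 held the same rank in all 8 libraries. The exceptions were neighbours in that order, mt-Cytb with mt-Nd1 and mt-Nd6 with mt-Nd3. By mean level mt-Atp6 was the highest entry of the whole table, with 31560 TPM, and the 6 most abundant members were among the 10 highest entries.

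**Figure D2:**
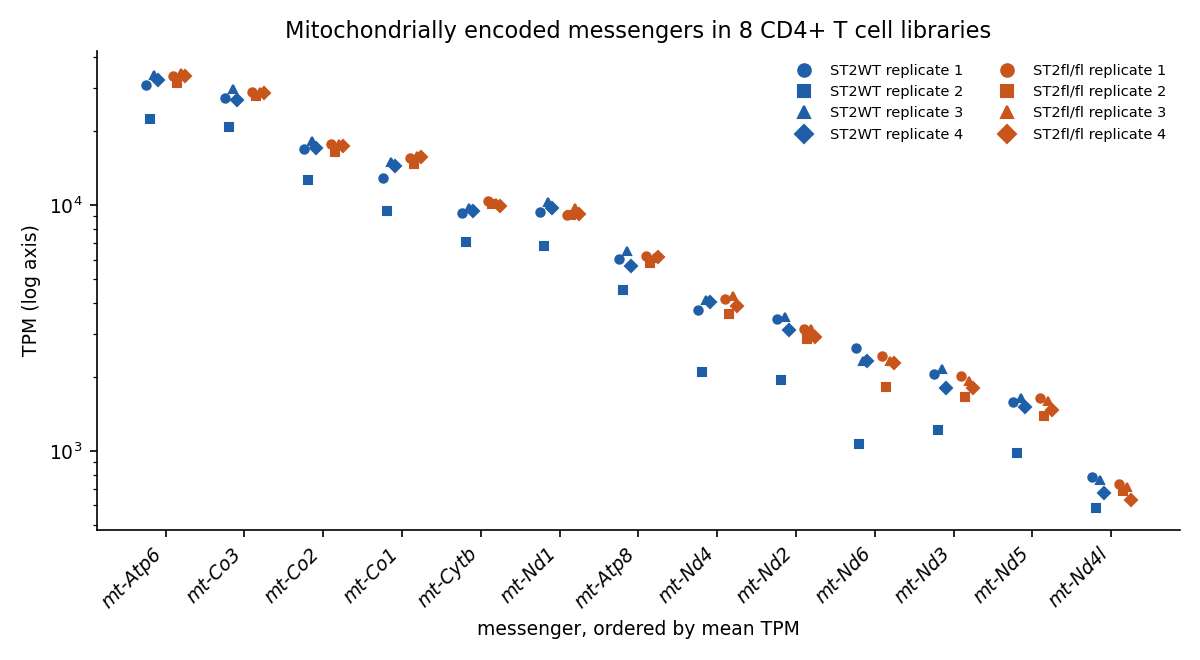
TPM of the 13 mitochondrially encoded messengers (log axis) in each library, with ST2WT in blue, ST2fl/fl in orange and 1 marker shape for each replicate number. The blue square, ST2WT replicate 2, is the lowest point for all 13 messengers, and the other points of a gene lie close together.

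Among the subunits of complex IV, mt-Co1 encodes the subunit that reduces oxygen. Its level was 12875, 9502, 14982 and 14487 TPM in ST2WT (recipients 1, 2, 3 and 4, in this order throughout) and 15485, 14738, 15804 and 15642 TPM in the ST2fl/fl libraries. It was lower in ST2WT cells in 4 of 4 recipients, although 1 ST2WT library lay above the lowest ST2fl/fl library. The mean was 12961 ± 2475 against 15417 ± 471 TPM (SD, n = 4), and the log2 fold change of ST2WT over ST2fl/fl was -0.27 (SE 0.12) with an adjusted p = 0.342 from limma over all 10238 genes tested. It did not pass the threshold, which asks for more than a 1.5-fold change besides an adjusted p below 0.05. Its neighbour mt-Co2, which encodes the subunit that accepts electrons from cytochrome c, was at 16906, 12685, 18295 and 17093 TPM in ST2WT and at 17690, 16398, 17676 and 17455 TPM in ST2fl/fl libraries. The groups overlapped, with the highest value of all 8 in the ST2WT library of recipient 3. mt-Co3, which completes the core, was at 27343, 20751, 29583 and 26800 TPM in ST2WT and at 28773, 27665, 28851 and 28473 TPM in ST2fl/fl libraries. Here too the highest and the lowest of the 8 libraries were both ST2WT.

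The subunits of ATP synthase share 1 stretch of RNA. mt-Atp6, which forms part of the proton path, was at 30789, 22471, 33729 and 32142 TPM in ST2WT (recipients 1 to 4) and at 33626, 31496, 34613 and 33619 TPM in the ST2fl/fl libraries. It was lower in ST2WT cells in all 4 recipients, but by little in 3 of them, and the groups overlapped. mt-Atp8, a small subunit beside it, was at 6060, 4532, 6477 and 5647 TPM in ST2WT and at 6219, 5810, 6064 and 6134 TPM in ST2fl/fl libraries, again with overlap. Although both are read from 1 transcript that carries the 43 shared bases printed above, mt-Atp6 stood 4.96 to 5.71 times as high as mt-Atp8 in each library. The same held for mt-Nd4 and mt-Nd4l, which also share a transcript, with mt-Nd4 3.58 to 6.15 times as high per length. How the authors' software shares reads over the overlap, and how reads near the ends of so short a gene are counted, is not known from TPM.

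Cytochrome b was the only member whose levels did not overlap between genotypes. mt-Cytb was at 9272, 7075, 9735 and 9462 TPM in ST2WT (recipients 1 to 4) and at 10370, 10132, 10211 and 9926 TPM in the ST2fl/fl libraries. All 4 ST2WT values were below all 4 ST2fl/fl values. The log2 fold change was -0.20 (SE 0.09, adjusted p = 0.339 from limma) over all libraries and -0.10 (SE 0.03, adjusted p = 0.146 from limma) without the ST2WT library of recipient 2. Over all tested genes, 5.45% had ST2WT values that all lay lower than the ST2fl/fl values and 4.58% had them all higher, so that 1 of 13 members in the lower direction and 0 of 13 in the higher one are near the background. Without the ST2WT library of recipient 2 the count stayed at 1 of 13, beside 8.70% of genes in the lower direction.

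The 7 complex I members ran from mt-Nd1, at 9176 TPM on average over the 8 libraries, down to mt-Nd4l, at 697 TPM. mt-Nd1, which encodes a subunit of the membrane arm beside the quinone site, was at 9402, 6830, 10281 and 9713 TPM in ST2WT and at 9136, 9137, 9716 and 9189 TPM in ST2fl/fl libraries. Its ST2WT values were the higher ones in recipients 1, 3 and 4 and the lower one in recipient 2. mt-Nd2, a proton-pumping subunit, was at 3451, 1942, 3520 and 3113 TPM in ST2WT and at 3119, 2845, 3144 and 2904 TPM in ST2fl/fl libraries, with the same pattern. mt-Nd4, another pumping subunit, was at 3741, 2102, 4107 and 4040 TPM in ST2WT and at 4156, 3608, 4275 and 3892 TPM in ST2fl/fl libraries. mt-Nd5, the outermost pump, was at 1574, 978, 1637 and 1515 TPM in ST2WT and at 1640, 1393, 1594 and 1469 TPM in ST2fl/fl libraries. For both, the ST2WT library of recipient 2 was the lowest and the ST2fl/fl library of recipient 2 the second lowest.

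Of the shorter complex I messengers, mt-Nd3 was at 2061, 1212, 2151 and 1808 TPM in ST2WT and at 2023, 1665, 1924 and 1796 TPM in ST2fl/fl libraries. mt-Nd4l was the least abundant member, with 780, 586, 763 and 674 TPM in ST2WT and 731, 689, 717 and 633 TPM in ST2fl/fl libraries. Both genotypes overlapped, and in each gene ST2WT was the higher one in recipients 1, 3 and 4. mt-Nd6, the only member of the minus strand, was at 2626, 1068, 2316 and 2319 TPM in ST2WT and at 2436, 1813, 2324 and 2281 TPM in ST2fl/fl libraries. Its SD was 33.2% of the mean in ST2WT and 12.4% in ST2fl/fl cells, the highest of the 13 members in each. Without the ST2WT library of recipient 2 it was 7.37% in ST2WT cells, below mt-Nd3 (8.86%), mt-Co1 (7.80%) and mt-Nd4l (7.69%). It was nevertheless above mt-Nd5, the gene of the other strand that it overlaps, in every library, by 1.09 to 1.67 times per length. If strand was not used in counting, the mt-Nd6 level also includes reads from transcripts of the other strand.

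Tested gene by gene, none of the mitochondrial messengers differed between genotypes past the threshold. Of 13 members 0 passed in limma (adjusted p 0.339 to 0.967), where 0.518% of all tested genes passed, and in the direction of lower ST2WT levels 0.273% passed. At an unadjusted p under 0.05 the members were mt-Co1 and mt-Cytb, or 2 of 13, both lower, beside 13.9% of all tested genes in either direction and 7.11% lower. By sign 12 members were lower in ST2WT cells and 1 (mt-Nd4l, at 0.01) was higher, beside 51.7% lower over all genes, and the median log2 fold change was -0.12 beside -0.01. All 13 share 1 genome and 8 libraries, so their signs are not independent of each other. The 95% intervals of 11 members lay within a 1.5-fold change either way, and those of mt-Nd4 (log2 -0.64 to 0.17) and mt-Nd6 (-0.68 to 0.37) reached past it. With the recipient as a block, 0 members passed and 3 (mt-Co1, mt-Atp6 and mt-Cytb) had an unadjusted p under 0.05, with adjusted p from limma of 0.148, 0.212 and 0.183, where 20.2% of genes had such a p and 0.928% passed.

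The excess of lower signs rested on 1 library. The ST2WT library of recipient 2 was the lowest of all 8 for 13 of 13 members, whereas it was the lowest for 31.7% of all tested genes. It lay 20.7% (mt-Nd4l) to 55.9% (mt-Nd6) under the mean of the other 3 ST2WT libraries. Without it, 7 members were higher and 6 lower in ST2WT cells, with a median log2 fold change of 0.01, and all 13 intervals of 95% lay within 1.5-fold. Again 0 members passed (lowest adjusted p = 0.146 from limma), beside 1.02% of all genes, and 3 had an unadjusted p under 0.05, beside 16.8% of all genes. These were mt-Nd2, now higher in ST2WT cells by 0.16 on the log2 scale, and mt-Co1 and mt-Cytb, lower at -0.13 and -0.10. Among the remaining 7 libraries the highest value of each member was less than 1.5 times its lowest.

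Within recipients, the 2 genotypes were close in 3 recipients and apart in 1. The median log2 ratio of ST2WT to ST2fl/fl over the 13 members was -0.06, -0.49, 0.04 and 0.01 in recipients 1, 2, 3 and 4. The ST2WT level was the lower one for 8, 13, 5 and 6 members in the same order. In recipient 2 the log2 ratios ran from -0.78 (mt-Nd4) to -0.23 (mt-Nd4l), and in the other recipients all lay between -0.27 and 0.16. mt-Co1, mt-Atp6 and mt-Cytb were lower in ST2WT cells in 4 of 4 recipients, or 3 of 13 members beside 16.7% of all genes. mt-Nd1, mt-Nd2, mt-Nd3 and mt-Nd4l were higher in ST2WT cells in all recipients but the second.

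**Figure D3:**
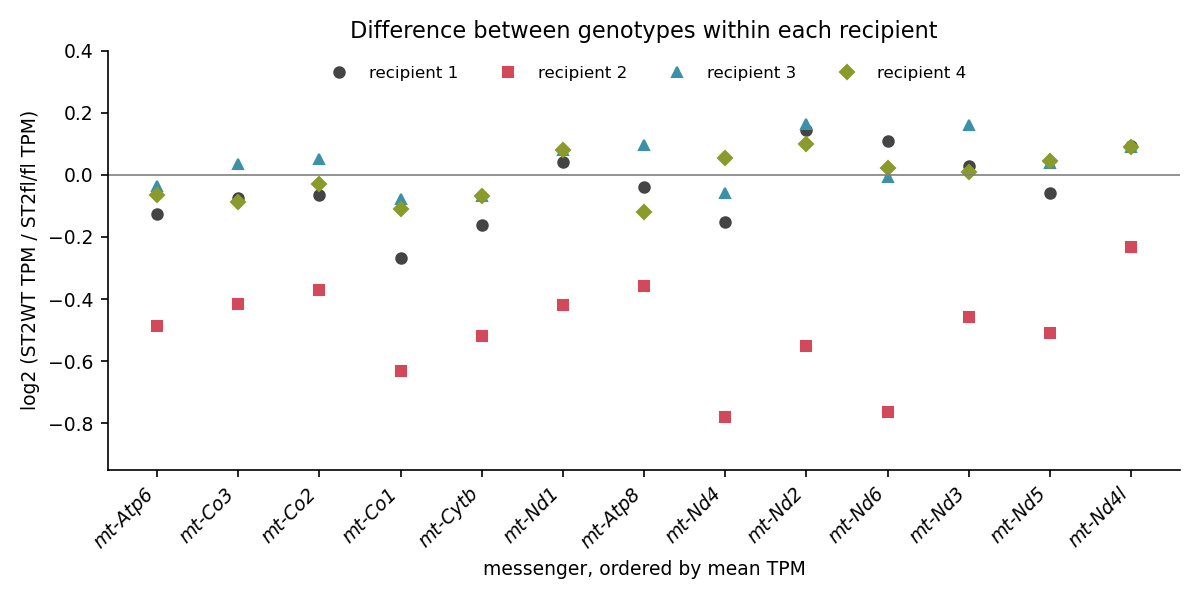
log2 ratio of ST2WT to ST2fl/fl TPM for each messenger (horizontal axis, from high to low mean level) in each recipient, 1 marker shape and color for each. Recipient 2 lies between -0.78 and -0.23 and the other 3 recipients between -0.27 and 0.16.

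The ST2fl/fl library of recipient 2 was low for the same messengers, to a smaller extent. For 10 of 13 members both libraries of recipient 2 were the lowest of their genotype, beside 18.9% of all tested genes. In the ST2fl/fl library the deficit against the other 3 of its genotype ran from 0.365% (mt-Cytb) to 22.8% (mt-Nd6). Across the 13 genes, the ratio to the other libraries of the genotype in the ST2WT library went with that in the ST2fl/fl library (Pearson r = 0.895, Spearman rho = 0.830). This is a description over 13 genes of 1 genome measured in the same libraries, and genes are not replicates. Both libraries carry the same replicate number, and whether they were handled together is not given in the sources used here.

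Beside these low values, other measures of the same library also moved. Summed TPM of apoptosis and stress genes was 279 in it, 200 to 202 in the other ST2WT and 220 to 233 in the ST2fl/fl libraries. Only some genes of this sum were raised. Pmaip1 was at 59.8 TPM in the ST2WT library of recipient 2, against 37.4 to 37.7 TPM in the other ST2WT libraries. Ddit3 was at 18.3 TPM there, against 18.0 to 22.7 TPM, and Egr1 at 2.93 TPM, against 3.02 to 4.04 TPM. Summed TPM of nuclear genes for mitochondrial RNA processing was 1013 and 898 in the ST2WT and ST2fl/fl libraries of recipient 2, against 751 to 812 in the 6 others. Rexo2, the largest part of this sum, was at 342 and 317 TPM there, against 215 to 251 TPM in the 6 others. Not every gene of the RNA processing list rose. Grsf1 was at 12.1 TPM in the ST2WT library of recipient 2, against 21.8 to 26.2 TPM in the other ST2WT libraries. Its CD4 T cell marker sum of 13580 TPM and myeloid marker sum of 28.5 TPM were the highest and the lowest among ST2WT libraries. The part of these measures in the low mitochondrial levels was not tested.

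The makeup of the mitochondrial messengers can be compared with the total removed, as the share of each in the mitochondrial sum. mt-Co1 held a smaller part in ST2WT cells, with 10.1, 10.4, 10.9 and 11.2% in the libraries of recipients 1, 2, 3 and 4 against 11.4, 11.6, 11.5 and 11.7% in ST2fl/fl cells. mt-Nd1 held a larger part, with 7.41, 7.45, 7.47 and 7.54% against 6.75, 7.17, 7.10 and 6.89%. mt-Co2 also held a larger part, with 13.3, 13.8, 13.3 and 13.3% against 13.1, 12.9, 12.9 and 13.1%. These 3 of 13 members did not overlap between genotypes, beside 7.48% of all tested genes when each was taken relative to the same sum. Without the ST2WT library of recipient 2 the count was 5 of 13, with mt-Nd2 (2.42 to 2.72% against 2.18 to 2.30%) and mt-Cytb (7.08 to 7.35% against 7.44 to 7.95%) added, beside 12.5% of all tested genes. Neither background is like the members. The mitochondrial sum ran from 91733 to 137576 TPM over the libraries. Dividing by it adds this spread to other genes and removes a spread that the members share. The counts therefore cannot be read as an excess over all genes. Shares of 1 sum are also tied to each other. A smaller part of mt-Co1 (-0.91 percentage points) makes other parts larger, with mt-Nd1 at 0.49 and mt-Co2 at 0.45. The 3 are thus not separate differences. The ST2WT library of recipient 2, which stood apart in level, lay inside the range of the other ST2WT libraries for mt-Co1 and mt-Nd1.

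**Figure D4:**
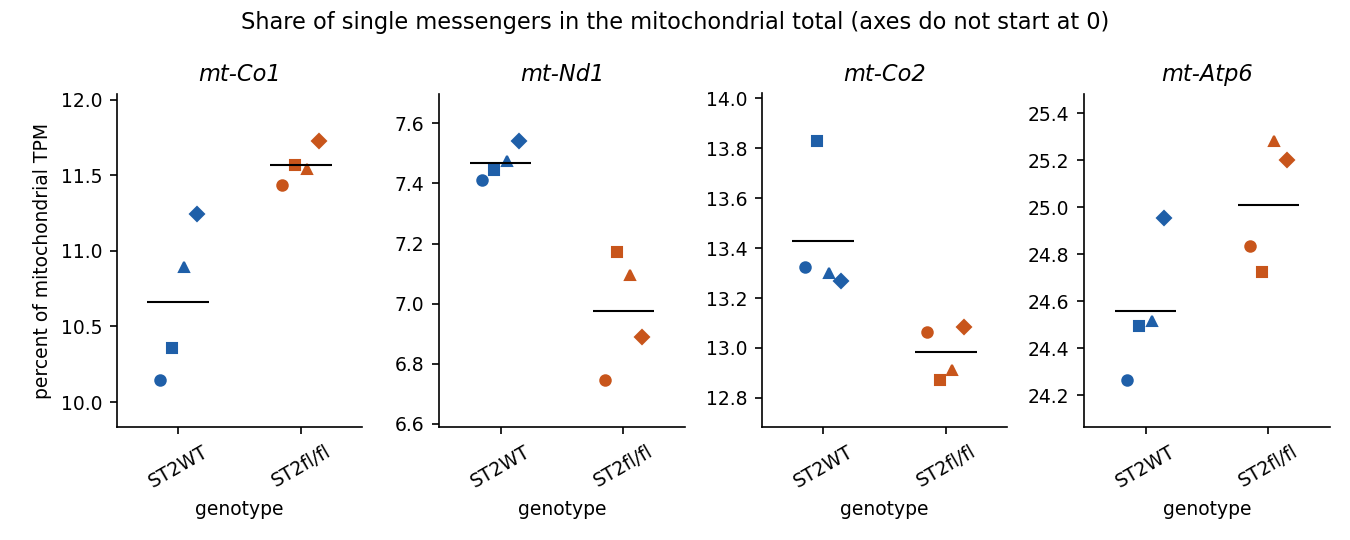
Share of mt-Co1, mt-Nd1, mt-Co2 and mt-Atp6 in the summed mitochondrial TPM (percent; each axis has its own range and none starts at 0) by genotype, with 1 marker shape for each replicate number and a bar at the mean of 4. The genotypes do not overlap for mt-Co1 (10.1 to 11.2% against 11.4 to 11.7%), mt-Nd1 and mt-Co2, and they do for mt-Atp6.

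The plainest single contrast was the ratio of mt-Co1 to mt-Nd1. It was 1.37, 1.39, 1.46 and 1.49 in the ST2WT libraries of recipients 1, 2, 3 and 4 and 1.70, 1.61, 1.63 and 1.70 in the ST2fl/fl libraries. All 4 recipients had the lower ratio in ST2WT cells. Of 78 pairs of members, 9 had ratios that did not overlap, of which 4 involved mt-Co1 and 3 involved mt-Nd1. mt-Co2, mt-Atp6 and mt-Cytb were each in as many of these pairs as mt-Nd1. The share among pairs of all tested genes was not computed, so the count has no background to be judged by. This ratio was picked from those 78 for its values and carries no test. In limma over all genes after scaling each library to its mitochondrial sum, which moved the median log2 fold change of all genes from -0.01 to 0.12, 0 members passed and mt-Co1 had the lowest p (log2 fold change -0.12, SE 0.05, adjusted p = 0.536). In size, the change in the part held by mt-Co1 was from 11.6 ± 0.119% in ST2fl/fl to 10.7 ± 0.500% in ST2WT cells (SD, n = 4 each). Of mt-Co1, 51.1% of the 50-base runs also lie in annotated nuclear copies, and of mt-Nd1 0%.

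Weighted by length, the shares approximate where the reads fell rather than the numbers of molecules. mt-Co1, the longest of the abundant messengers, then held 18.3 to 20.9% of the mitochondrial total in the 8 libraries, next to 19.3 to 19.8% for mt-Atp6 and 18.8 to 20.8% for mt-Co3. mt-Nd4l held 0.162 to 0.222% and mt-Nd3 0.523 to 0.660%. The levels of these short messengers therefore rest on the fewest reads among the members, although TPM do not give the number.

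The nuclear encoded partners of these subunits did not share the pattern. The summed level of nuclear subunits was higher in all 4 ST2WT than in all 4 ST2fl/fl libraries for complex I (17599 to 18271 against 16949 to 17495 TPM), complex III (6063 to 6196 against 5459 to 5762 TPM), complex IV (15183 to 15677 against 14367 to 14552 TPM) and ATP synthase (10659 to 11089 against 9771 to 10129 TPM). No background over all genes was computed for such sums. Gene by gene, none passed the threshold in limma, beside 0.518% of all tested genes. By sign 29 of 36, 8 of 9, 10 of 12 and 13 of 15 were higher, beside 4940 of all 10238 tested genes. At an unadjusted p under 0.05, 9, 3, 2 and 6 of these nuclear subunits were higher and none lower, beside 6.80% of all tested genes that were higher. Examples are Ndufc1, an accessory subunit of complex I (318 ± 14.4 against 260 ± 10.96 TPM, log2 fold change 0.29, adjusted p = 0.106 from limma), Cox5a of complex IV (2198 ± 155 against 1867 ± 70.2 TPM, 0.23, adjusted p = 0.144 from limma) and Uqcrb of complex III (1220 ± 49.99 against 1064 ± 44.0 TPM, 0.20, adjusted p = 0.185 from limma; SD, n = 4 in each). These lists are parts of a respiratory gene set that had been compared between the genotypes before, so their direction is not independent evidence.

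The mean level of a mitochondrially encoded subunit was several times that of a nuclear encoded subunit of the same complex, and this ratio was lower in ST2WT cells for complex III. There it was 13.5, 10.5, 14.3 and 13.7 in the ST2WT libraries of recipients 1, 2, 3 and 4 and 17.1, 15.8, 16.6 and 16.1 in the ST2fl/fl libraries. The genotypes did not overlap with or without the ST2WT library of recipient 2. That follows from results given above and is no separate contrast, since mt-Cytb was lower and the nuclear sum higher in all 4 ST2WT libraries. This ratio rests on mt-Cytb alone as its upper part and on 9 nuclear genes as its lower part. For the other complexes the ratios overlapped, at 4.30 to 7.06 against 6.22 to 7.19 for complex I, 11.3 to 16.3 against 16.2 to 17.4 for complex IV and 18.3 to 28.3 against 27.6 to 30.9 for ATP synthase. In all 4 recipients and for all 4 complexes the ST2WT library had the lower ratio of the pair. For complex I in recipients 1, 3 and 4 the mitochondrial part was nonetheless higher in ST2WT, at 1.02, 1.05 and 1.05 times ST2fl/fl. The nuclear part was higher still, at 1.07 times in each. Complex IV in recipient 3 was alike, at 1.01 and 1.08 times. A lower ratio is thus not always a lower mitochondrial level, and these ratios have no background over all genes.

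**Figure D5:**
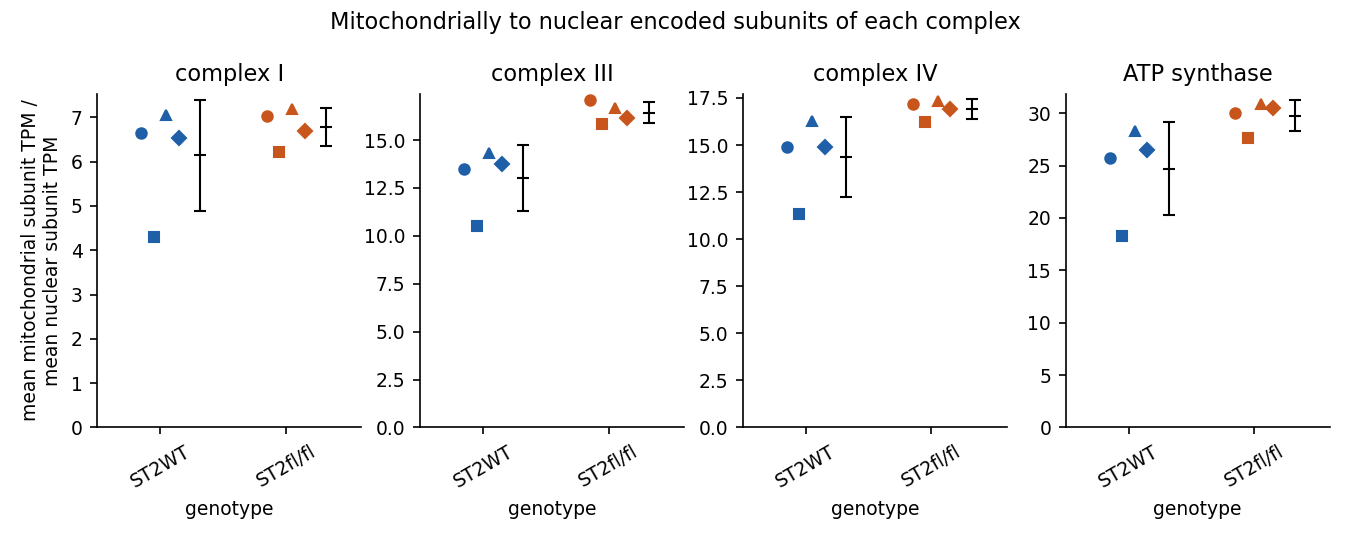
Mean TPM of the mitochondrially encoded subunits divided by mean TPM of the nuclear encoded subunits of the same complex (ratio, each axis from 0) by genotype, with 1 marker shape for each replicate number and the mean ± SD of 4 beside the points. For complex III the ST2WT libraries lie at 10.5 to 14.3 and the ST2fl/fl libraries at 15.8 to 17.1, and the other complexes overlap.

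Nuclear genes that make and process mitochondrial RNA gave 1 call. Of 23 tested genes for mitochondrial transcription and mtDNA maintenance 0 passed, with a median log2 fold change of -0.01, equal to that of all genes. The smallest p belonged to Slc25a36, a pyrimidine nucleotide carrier of the inner membrane (3.40 ± 0.575 against 5.42 ± 0.962 TPM, log2 fold change -0.54, adjusted p = 0.152 from limma), and Tefm, the elongation factor of the mitochondrial polymerase (14.4 ± 2.78 against 10.4 ± 1.40 TPM, 0.43, adjusted p = 0.248 from limma; SD, n = 4 in each). Of 36 tested genes for processing, stability and modification of mitochondrial RNA, 26 were higher by sign in ST2WT cells. Over all tested genes, 4940 of 10238 were higher by sign. The median of the list was 0.11, and 8 of its genes had an unadjusted p under 0.05, all higher, beside 6.80% of all genes.

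The called gene was Cdk5rap1, which adds a methylthio group to mitochondrial transfer RNAs. It was at 12.1, 14.8, 11.97 and 12.3 TPM in ST2WT (recipients 1 to 4) and at 7.15, 8.68, 6.88 and 7.07 TPM in the ST2fl/fl libraries, without overlap. It was higher in ST2WT cells by 0.71 on the log2 scale (SE 0.12, adjusted p = 0.0246 from limma), 1 of 36 list members beside 0.244% of all genes called higher. The call was lost when any of 6 single libraries was left out (adjusted p from limma 0.0677 to 0.103 in those fits), with the log2 fold change between 0.68 and 0.74, and it held without either library of recipient 2. It was lost as well with the recipient as a block and the pair of recipient 1, 3 or 4 left out (adjusted p from limma 0.147, 0.0886 and 0.115). Fastkd5 and Fastk, which act in the maturation and stability of mitochondrial messengers, were at 0.43 and 0.50 on the log2 scale with adjusted p from limma of 0.218 and 0.257.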

How the data were processed

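RNA-Seq was analysed from 8 libraries of sorted donor CD4+ T cells. The authors used a SmartSeq low-input kit, Nextera XT and a NextSeq500, and CLC Genomics Workbench 20.0.3 for alignment to GRCm38.p6 and for counting reads by gene. Per library, the authors deposited TPM. The annotation release, the strand setting and the treatment of reads that match several places are not given in the sources used here. The submitters' notes also name edgeR with TMM, which needs counts. Since TPM hold no read totals, depth and counting error are unknown for every library. The values of a library sum to 999334 to 999527, and 0 entries hold a value of 0. Syngeneic recipients were not analysed here.

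The 10238 genes whose mean reached 1 TPM, all 13 members among them, entered limma 3.58.1 (R 4.3.3) as log2(TPM + 1), and 2179 did not. The fit had a variance trend and no covariate, and a call needed p below 0.05 after Benjamini-Hochberg adjustment besides more than a 1.5-fold change. Positive values mean higher in ST2WT cells. Fold changes are on the log2(TPM + 1) scale. P-values measure the spread between libraries. Shares and ratios were computed per library and carry no test. Every mt- gene could be named. Of the other lists, genes past the threshold and up to 3 with the smallest p were. Rexo2 and Grsf1 were named besides, for their part in a sum. Members and lists were chosen with earlier results of these data known. Alternatives were other pseudocounts, filters, scalings and variance models, array weights, the replicate block, and leaving out libraries or pairs. The pairing follows the cotransfer into 1 recipient and the replicate numbers in the labels, which name no recipient. Deviations from the group means correlated at 0.118 to 0.352 in the 4 same-numbered pairs and at -0.283 to 0.109 in all others. Coordinates and sequences are from GENCODE M21 on GRCm38. The limma script was tested on simulated data. Figures were drawn with matplotlib 3.10.9.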

Additional observations from a re-analysis of the deposited data

Results flagged for a closer look

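In groups of 4 libraries, a sample far from the other 3 was looked for in 88 groups of values, of which chance is taken to give about 1 in 20, and 3 were found. The ST2fl/fl library of recipient 3 had the highest mt-Nd1 level of its genotype, 9716 TPM, with the nearest at 9189 TPM. The ST2WT library of recipient 2 held 13.8% of its mitochondrial TPM in mt-Co2, with the nearest ST2WT library at 13.3%. The same library held 1.47% of summed TPM in the complex I messengers, with the other ST2WT libraries at 2.32 to 2.48%. Neither the TPM of any single member nor the whole mitochondrial share of summed TPM was flagged in that library.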

How the results depend on the processing

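No member passed the threshold under any of 23 alternatives run. The lowest adjusted p of a member from limma was 0.0469, for mt-Nd2 at 0.14 on the log2 scale with the replicate block and without both libraries of recipient 2, under the fold limit. Of 299 values (13 members under 23 alternatives), 30 had the opposite sign. With array weights these were mt-Nd1 0.050, mt-Nd2 0.12, mt-Nd3 0.072, mt-Nd5 0.011 and mt-Nd6 0.071, and with nuclear scaling, alone or with the replicate block, mt-Nd4l at -0.0090. Leaving out libraries or pairs gave -0.12 to 0.076 for mt-Nd1, -0.12 to 0.16 for mt-Nd2, -0.17 to 0.010 for mt-Co2, -0.16 to 0.12 for mt-Nd3, -0.044 to 0.093 for mt-Nd4l, -0.20 to 0.050 for mt-Nd5 and -0.30 to 0.14 for mt-Nd6, with the higher ends reached without the ST2WT library of recipient 2. The other 6 members stayed lower in ST2WT cells under all 23. The difference in share was -1.54 percentage points relative to the other entries and -1.75 to -0.22 with 1 library left out. The median log2 fold change was -0.20 to 0.01 with libraries left out and -0.14 to -0.02 otherwise.

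Over all genes, 53 passed. The count was 32 with a pseudocount of 5 TPM, 130 with array weights, 95 with the replicate block, 108 with the replicate block and nuclear scaling, and 15 to 118 with libraries or pairs left out (104 without the ST2WT library of recipient 2); the cause was not tested. The Cdk5rap1 call was also lost with a pseudocount of 5 TPM (0.52, fold limit). The block changed no member's call. The shares of the mitochondrial sum without the ST2WT library of recipient 2 were also compared after seeing the data. Scaling to the mitochondrial sum, the same with the block or without the ST2WT library of recipient 2, and nuclear scaling without that library were chosen after seeing the data, and 0 members passed in each.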
